A study of Mus musculus with 6 samples.

Results

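The miR-17-92 polycistron is a group of 6 miRNA hairpins cut from one primary transcript, that of the host gene Mir17hg. The members described here are the 10 mature mouse miRNA names of these hairpins, taken by name from a table of 1224 miRNA names. In transcript order they are mmu-miR-17-5p, mmu-miR-17-3p, mmu-miR-18a-5p, mmu-miR-18a-3p, mmu-miR-19a-3p, mmu-miR-20a-5p, mmu-miR-20a-3p, mmu-miR-19b-3p, mmu-miR-92a-1-5p and mmu-miR-92a-3p, and the prefix is mostly left out below. The study sequenced small RNA of GC-1spg, an immortalised cell line from mouse testis that serves as a model for spermatogonia, the founder cells of sperm formation. The si-METTL3 group had 3 libraries of cells transfected with an siRNA against METTL3, and the si-NC group had 3 libraries of cells transfected with a control siRNA. All 6 came from this one line, and the cells were collected 48 h after transfection. METTL3 is the enzyme that places most N6-methyladenosine (m6A) on mRNA, and the comparison is of small RNA after METTL3 siRNA and after control siRNA in this line. No genotype other than the siRNA is given in the labels, which print one siRNA sequence for both groups, and the groups used here are those of the sample titles. Counts of mature miRNAs hold no measure of Mettl3 mRNA or of m6A, so neither the knockdown nor a fall in m6A was checked.

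Polycistronic miRNAs leave the nucleus as separate hairpins after the nuclease Drosha and its partner DGCR8 have cut the primary transcript, and Dicer then frees the arms of each hairpin, named 5p and 3p. One arm, the guide, usually stays in an Argonaute protein and the other is mostly degraded, and the guide finds its targets mainly through its seed, bases 2 to 8. The cluster is known for driving proliferation and holding back cell death, among others by repression of the pro-apoptotic gene Bim. In mice its loss from male germ cells impairs spermatogenesis. In human cells, METTL3 has been linked to the recognition of primary miRNA transcripts by DGCR8.

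The guide arms fell into 4 seed groups. Their mature sequences, and that of miR-92a-1-5p, the minor arm whose level changed, are shown 5′ to 3′ with the seed in capitals, from RefSeq on GRCm38.p6. All lay on the plus strand, at chr14:115043684-115043706 for miR-17-5p, chr14:115043867-115043889 for miR-18a-5p, chr14:115044048-115044070 for miR-19a-3p and chr14:115044183-115044205 for miR-20a-5p. miR-19b-3p followed at chr14:115044358-115044380, miR-92a-1-5p at chr14:115044437-115044459 and miR-92a-3p at chr14:115044476-115044496.
miR-17-5p: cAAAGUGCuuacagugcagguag
miR-20a-5p: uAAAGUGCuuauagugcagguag
miR-18a-5p: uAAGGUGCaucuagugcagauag
miR-19a-3p: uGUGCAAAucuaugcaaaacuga
miR-19b-3p: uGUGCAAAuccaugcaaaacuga
miR-92a-3p: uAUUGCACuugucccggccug
miR-92a-1-5p: aGGUUGGGauuugucgcaaugcu
Positions are counted from 1 at the 5′ end, with the base of the first-named miRNA first. miR-17-5p and miR-20a-5p share the seed AAAGUGC and differ at 2 of 23 positions (C1U and C12U). miR-18a-5p carries a related seed, AAGGUGC, and differs from miR-17-5p at 6 positions, of which A4G is in the seed. miR-19a-3p and miR-19b-3p share the seed GUGCAAA and differ at 1 of 23 positions (U11C). All 10 deposited member sequences were identical to the RefSeq mature sequences.

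Some names in the table belong to other species and end in -x, -y or -z. For 16 such names, the mouse arm that shared the longest unbroken stretch, of at least 16 bases, was a member arm. They are called end variants here. The stretch had to begin within 2 bases of the arm's start, and names tied between mouse arms were left out. Another mouse arm may share a shorter stretch. None of the 16 matched a member hairpin over its whole length, and 1 to 2 bases of each were not in the hairpin. The sources used here do not say how the authors assigned reads to these names. The variants the results turn on are shown in lower case with the bases that the hairpin lacks in capitals. Below them are the Mir20a and Mir92-1 hairpins from RefSeq (GRCm38.p6, chr14:115044157-115044263 and chr14:115044427-115044506, plus strand), with the mature arms in capitals.
miR-106-x: taaagtgcttatagtgcaggtagAA
miR-92-y: tattgcacttgtcccggcctgtA
Mir20a: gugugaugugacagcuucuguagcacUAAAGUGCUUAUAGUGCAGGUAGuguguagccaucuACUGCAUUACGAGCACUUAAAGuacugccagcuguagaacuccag
Mir92-1: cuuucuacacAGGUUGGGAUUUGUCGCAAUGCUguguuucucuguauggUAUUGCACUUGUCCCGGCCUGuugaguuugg
The name miR-20-x carries the same sequence as miR-106-x, with its own counts. The first 22 bases of miR-92-y are in Mir92-1.

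Library totals were 4473804 to 6132668 reads in si-METTL3 and 3998058 to 4052812 in si-NC, with 1047 to 1126 names detected per library. A count of 3 in a library stood for 0.489 to 0.75 CPM, the count scaled to a common library size, here by library totals. Among the miRNA markers of the labelled cell, 15 of 17 names of an X-linked cluster of male germ cells had a row, with summed levels of 134 to 146 CPM in si-METTL3 and 161 to 191 CPM in si-NC. The 11 markers of pluripotent cells had no row among those analysed here. Muscle markers, 4 of 6 with a row, summed to 47.8 to 64.2 CPM in si-METTL3 and 92.04 to 96.4 CPM in si-NC, and neuronal markers, 4 of 6 with a row, to 255 to 302 CPM in si-METTL3 and 210 to 236 CPM in si-NC. The 8 blood markers summed to 159 to 164 CPM in si-METTL3 and 133 to 158 CPM in si-NC, and the 2 of gonadal somatic cells to 16.8 to 20.6 CPM in si-METTL3 and 18.3 to 20.98 CPM in si-NC. Their part in the results was not tested. Reads under 5 invertebrate miRNA names set libraries apart, with 781, 355 and 314 counts in si-METTL3 1 to 3 and 1, 194 and 410 in si-NC 1 to 3. The name miR-750-y had 321 counts in si-METTL3 1 and 0 in the other si-METTL3 libraries, against 0, 83 and 177 in si-NC 1 to 3. Results are therefore also given without si-NC 1, and from a 3-library fit of the libraries that share reads of miR-750-y, si-METTL3 1 against si-NC 2 and 3. That fit was chosen after seeing the data, and its lone si-METTL3 library is assumed to vary like the si-NC ones. No label states that replicates were separate cultures, so the spread behind each p-value is that among these libraries and may be technical.

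The 6 hairpins lay in exon 2 of Mir17hg (GENCODE M21, chr14:115042879-115046727, plus strand), within 836 bases, and the names of their arms held unequal numbers of reads. Reads of miR-92a-3p and miR-19b-3p that come from copies of these hairpins on the X chromosome are counted here under Mir92-1 and Mir19b-1. With both arms added, Mir92-1, the last hairpin of the transcript, gave 5662 ± 178 CPM in si-METTL3 and 6245 ± 178 CPM in si-NC (mean ± SD, n = 3, here and below, counts scaled by TMM). Mir18, the hairpin next to the first, gave 126 ± 8.62 CPM in si-METTL3 and 124 ± 2.11 CPM in si-NC. The names of the Mir92-1 arms thus held 41.7 to 49.7 times as many reads as those of Mir18 in the si-METTL3 libraries, and 48.6 to 52.5 times as many in the si-NC libraries.

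Read numbers did not follow the order of the hairpins along the transcript. Whether reads of different sequences track their amounts in the cell was not tested, here and below. Mir17, the first, gave 751 ± 55.4 CPM in si-METTL3 and 703 ± 7.66 CPM in si-NC, and Mir19a gave 262 ± 8.14 CPM in si-METTL3 and 298 ± 2.87 CPM in si-NC. Mir20a gave 1646 ± 116 CPM in si-METTL3 and 1637 ± 80.4 CPM in si-NC. Mir19b-1 gave 937 ± 23.5 CPM in si-METTL3 and 1024 ± 27.5 CPM in si-NC. The gaps between neighbouring hairpins were 96, 53, 75, 41 and 35 bases in transcript order, and the closest pair was Mir19b-1 and Mir92-1.

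**Figure D1:**
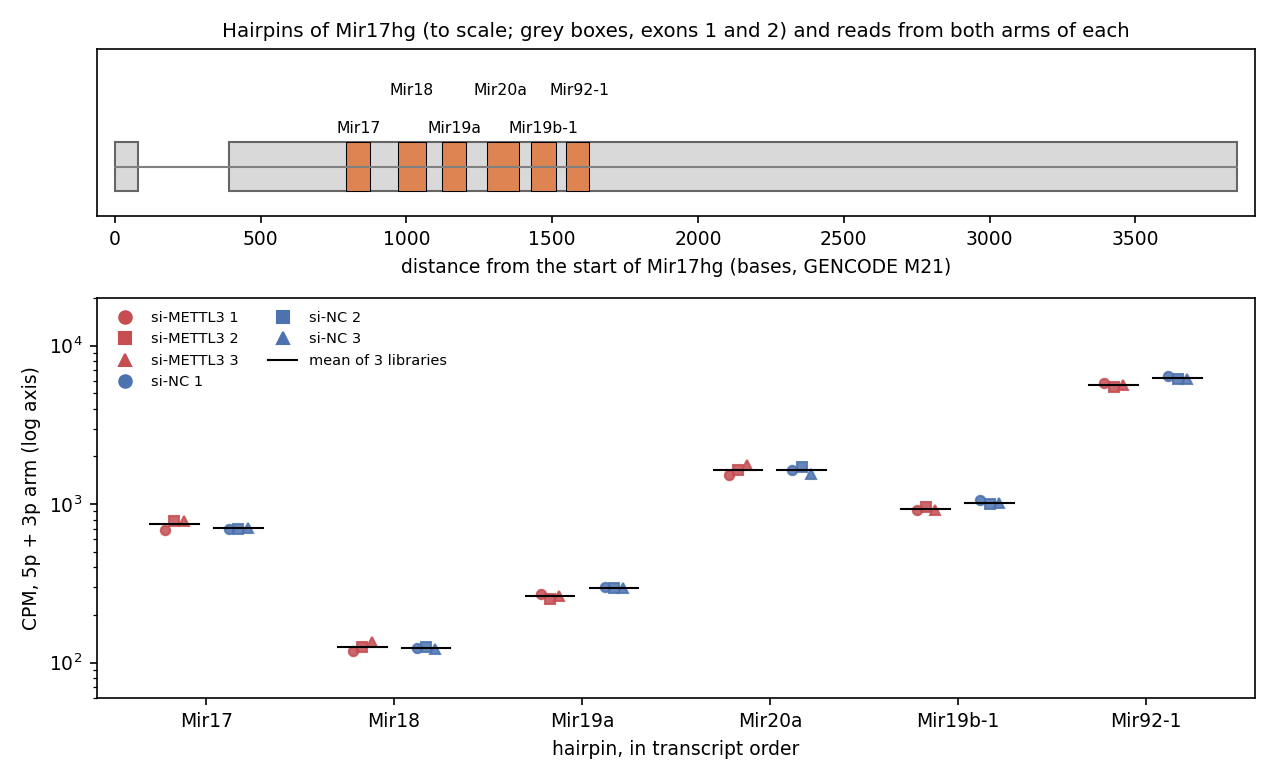
The upper panel draws the 6 hairpins to scale as orange boxes on Mir17hg (grey boxes, exons 1 and 2), against the distance from the gene's start in bases. The lower panel gives, for each hairpin and library, the CPM of both arms together on a log axis (points, libraries; lines, means of 3), with Mir92-1 the highest and Mir18 the lowest in all 6 libraries. Values of Mir92-1 and Mir19b-1 include any reads of their X-linked copies.

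Mir92-1 and Mir19b-1 have copies on the X chromosome, Mir92-2 (chrX:52741838-52741928) and Mir19b-2 (chrX:52741983-52742066), both on the minus strand of GRCm38.p6. They belong to the miR-106a-363 cluster, a paralogue, and their 3p arms have the same mature sequences, so reads of miR-92a-3p and miR-19b-3p cannot be assigned to one locus. Other products of the X-linked cluster were low. miR-363-3p had 33.5, 43.1 and 33.1 CPM in si-METTL3, against 40.1, 41.2 and 34.3 CPM in si-NC, and miR-20b-5p averaged 0.88 CPM in si-METTL3 and 1.30 CPM in si-NC. The remaining 8 names of that list had no row among those analysed here. miR-92a-1-5p, the other arm of Mir92-1, is annotated only at the chromosome 14 locus.

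The order of levels was the same in both groups. miR-92a-3p, known in endothelial cells as an inhibitor of vessel growth, was the most abundant, followed by miR-20a-5p, miR-19b-3p, miR-17-5p, miR-19a-3p, miR-92a-1-5p, miR-17-3p, miR-18a-5p, miR-20a-3p and miR-18a-3p. In neither group did the ranges of neighbours in this order overlap. The closest neighbours were miR-17-3p and miR-18a-5p in si-METTL3, 1.17-fold apart in mean CPM, and miR-19a-3p and miR-92a-1-5p in si-NC, 1.18-fold apart. miR-92a-3p ranked 29 among mouse names in si-METTL3 and 26 in si-NC, and miR-18a-3p ranked 239 in si-METTL3 and 226 in si-NC. The reads of miR-92a-3p exceeded those of miR-18a-3p by 235 to 273 times in si-METTL3 and by 222 to 298 times in si-NC.

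**Figure D2:**
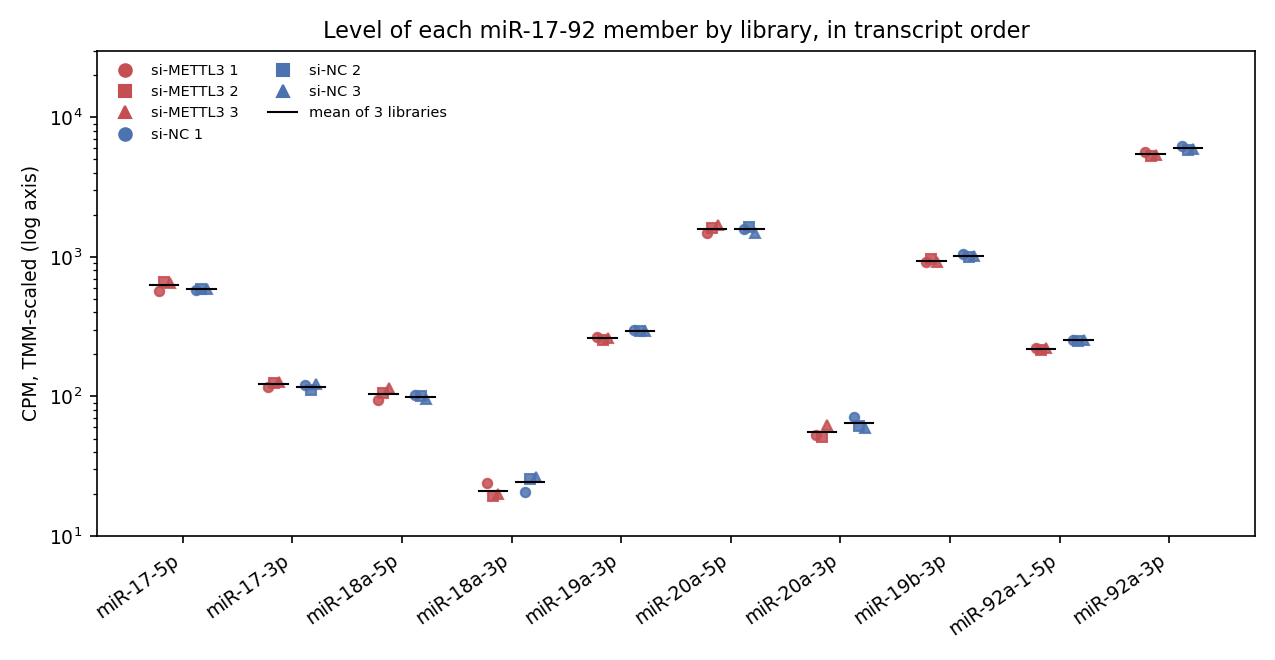
The plot gives the CPM of each member in each library on a log axis, with members in transcript order, si-METTL3 in red left of si-NC in blue, and lines for the means of 3 libraries. The lowest value is 19.4 CPM for miR-18a-3p in si-METTL3 2 and the highest 6196 CPM for miR-92a-3p in si-NC 1.

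After METTL3 siRNA the 2 miR-19 members and both arms of miR-92a fell slightly, and the miR-17, miR-18a and miR-20a arms did not pass the test in either direction. All 10 members could be tested. Of these, 4 fell and 0 rose at 0.05 after Benjamini-Hochberg adjustment over 622 names (two-sided quasi-likelihood test of edgeR). Over all tested names 29.3% were called, 11.6% lower and 17.7% higher, and of the mouse names alone 31.5%. The same 4 members were those whose si-METTL3 libraries all lay below the si-NC libraries, as did 17.8% of the names tested, and 0 lay above, as did 23.3%. In bulk RNA, fewer cells that express a miRNA and less of it per cell cannot be told apart. A change shared by all miRNAs would not show after this scaling. The median log2 fold was -0.13 over the 10 members and 0.0054 over all names.

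The falls were small, between 8.36% and 12.5%. Of the 182 names called, 156 had a log2 fold of larger size than that of miR-92a-1-5p, the largest among the members called. Leaving out 1 library changed the number of members called, to 1 without si-METTL3 2 (miR-19b-3p, adjusted p 0.0403), 1 without si-NC 1 (miR-92a-1-5p, 0.0429) and 3 without si-NC 3, under edgeR's test. In the 3-library fit 0 members passed, with log2 folds of -0.14 for miR-19a-3p, -0.13 for miR-19b-3p, -0.07 for miR-92a-3p and -0.18 for miR-92a-1-5p.

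The most abundant member, mmu-miR-92a-3p, had 34330, 22939 and 23893 counts in si-METTL3 1 to 3, against 25354, 24116 and 24468 in si-NC 1 to 3. These were 5631, 5284 and 5410 CPM in si-METTL3, against 6196, 5876 and 5908 CPM in si-NC. Every si-METTL3 library was below every si-NC library. The log2 fold was -0.14 ± 0.04 (SE, adjusted p 0.0106, edgeR). The call was lost without si-METTL3 2 (adjusted p 0.0562), without si-NC 1 (0.0560), with end variants added to each mouse arm (log2 fold -0.09, adjusted p 0.0996) and with limma on the deposited TPM (0.0585 to 0.0769). Over all 20 alternatives its adjusted p ran from 0.000248 to 0.566, the last in the 3-library fit.

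Its other arm, mmu-miR-92a-1-5p, had 1359, 939 and 978 counts in si-METTL3 and 1038, 1018 and 1052 in si-NC. This came to 223, 216 and 221 CPM in si-METTL3, against 254, 248 and 254 CPM in si-NC, again with no overlap. The log2 fold was -0.19 ± 0.06 (adjusted p 0.0116, edgeR), and the call was lost without si-METTL3 2 (adjusted p 0.0574) and in the 3-library fit (0.246), the highest of 20 alternatives that began at 0.00126.

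miR-19a-3p and miR-19b-3p are the members best known for promoting lymphoma in mice, and they were the 2 mouse names of their seed in the table. mmu-miR-19a-3p had 1637, 1101 and 1158 counts in si-METTL3, against 1228, 1212 and 1217 in si-NC. In CPM it had 268, 254 and 262 in si-METTL3, against 300.1, 295 and 294 in si-NC. The groups did not overlap, and the log2 fold was -0.18 ± 0.06 (SE, adjusted p 0.0147, edgeR). That call was lost without si-METTL3 2 (adjusted p 0.0841) or si-NC 1 (0.0560) and in the 3-library fit (0.368), and the lowest of the 20 alternatives was 0.00155.

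mmu-miR-19b-3p had 5622, 4182 and 4078 counts in si-METTL3, against 4307, 4118 and 4178 in si-NC. It reached 922, 963 and 923 CPM in si-METTL3, against 1053, 1003 and 1009 CPM in si-NC. The si-METTL3 libraries were all lower, and the log2 fold was -0.13 ± 0.04 (SE, adjusted p 0.0349, edgeR). The call was lost in 11 of 20 alternatives, more than for the other 3 members (adjusted p 0.00151 to 0.225 over the 20). It was lost without si-METTL3 1 (adjusted p 0.0726), si-METTL3 3 (0.0860), si-NC 1 (0.159) or si-NC 3 (0.0525), with no filter on low counts (0.0674), with end variants added (0.0675), in edgeR's exact test (0.0536), with limma on TPM (0.0556 to 0.0688) and in the 3-library fit (0.225).

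The miR-17 family guides, which repress cell cycle inhibitors and Bim, did not pass. mmu-miR-17-5p had 3476, 2859 and 2892 counts in si-METTL3, against 2354, 2426 and 2436 in si-NC. It had 570, 659 and 655 CPM in si-METTL3, against 575, 591 and 588 CPM in si-NC. Thus si-METTL3 2 and 3 lay above all si-NC libraries and si-METTL3 1 below them, with a log2 fold of 0.10 ± 0.05 (adjusted p 0.188, edgeR). Without si-METTL3 1 the log2 fold was 0.17 and passed (adjusted p 0.0124), and in the 3-library fit it was -0.05 (adjusted p 0.723). Its adjusted p ran from 0.0124 to 0.808 over the 20 alternatives.

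mmu-miR-20a-5p had 8988, 6944 and 7495 counts in si-METTL3 and 6458, 6765 and 6177 in si-NC. It reached 1474, 1600 and 1697 CPM in si-METTL3, against 1578, 1648 and 1491 CPM in si-NC. The si-NC values lay within the range of the si-METTL3 values (log2 fold 0.02 ± 0.05, adjusted p 0.869, edgeR), and the sign changed with the scaling, to -0.05 with library totals alone.

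miR-18a-5p, which in Myc-driven tumour cells represses the gene Ctgf, had 93.8, 106 and 115 CPM in si-METTL3, against 102, 100.1 and 95.4 CPM in si-NC. Its groups overlapped (log2 fold 0.07 ± 0.08, adjusted p 0.547, edgeR). The 3p arms of these hairpins are mostly minor products. For miR-17-3p the log2 fold was 0.06 ± 0.07 (adjusted p 0.601, edgeR), and it turned to -0.009147 with library totals alone. For miR-18a-3p, the least abundant member with 84 to 146 counts in si-METTL3 and 85 to 110 in si-NC, it was -0.20 ± 0.15 (adjusted p 0.356, edgeR). miR-20a-3p had 52.8, 51.4 and 62.3 CPM in si-METTL3, against 71.4, 61.6 and 59.4 CPM in si-NC. Its log2 fold was -0.21 ± 0.10 (adjusted p 0.124), and it passed without si-METTL3 3 (-0.30, adjusted p 0.0395) and when scaled by library totals alone (-0.28, adjusted p 0.0337), the lowest of 20 alternatives that reached 0.472.

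**Figure D3:**
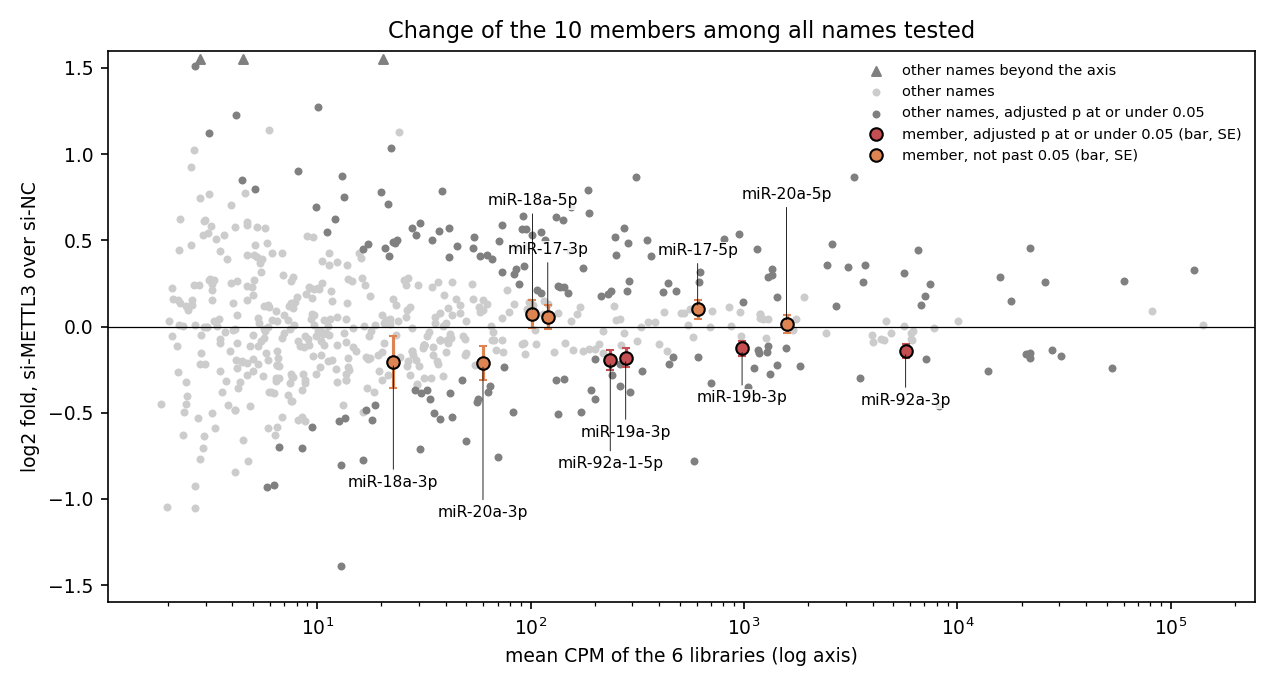
Each point is 1 of the 622 names tested, with its mean CPM on a log axis and its log2 fold of si-METTL3 over si-NC; 3 names lie above the axis limit of 1.6 and are drawn as triangles. The 10 members (red, past an adjusted p of 0.05; orange, not past it; bars, SE) lie between -0.21 and 0.10, close to the line at 0.

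In the authors' deposited table, miR-92a-3p had a mean TPM of 5319 in si-METTL3 and 6133 in si-NC, with a log2 fold of -0.21 and an FDR of 0.0629. The authors' FDR was at or under 0.05 for 2 members, miR-19a-3p (log2 fold -0.25, FDR 0.0163) and miR-92a-1-5p (-0.26, FDR 0.00897) in the authors' deposited table. None of the 10 was among the 50 names of the authors' deposited table of differential miRNAs, whose smallest log2 fold was 1.01 in size. In the deposited TPM, which uses library totals with no further scaling, 5 members had si-METTL3 values all below si-NC, as did 24.6% of the names tested. The added one was miR-20a-3p, with 52.5, 49.8 and 60.2 TPM in si-METTL3, against 72.05, 63.3 and 61.4 TPM in si-NC.

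Summed, the 10 members took a smaller part of the libraries after METTL3 siRNA, though 4 of them had a positive log2 fold. The 10 members summed to 0.917% ± 0.016 of the library total in si-METTL3 and 1.03% ± 0.0096 in si-NC (SD, n = 3 each). After TMM scaling the sums were 9278 to 9492 CPM in si-METTL3 and 9848 to 10270.5 CPM in si-NC, with no overlap. Most of that sum is miR-92a-3p, which made up 58.0% ± 1.78 of the cluster's reads in si-METTL3 and 59.8% ± 0.70 in si-NC, with overlapping ranges.

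Within the cluster, 4 of the 10 members' shares did not overlap between the groups. In CPM, a different measure, 41.2% of all names tested did not overlap. miR-17-5p made up 6.08%, 7.10% and 6.90% of the cluster's reads in si-METTL3, against 5.60%, 5.93% and 5.97% in si-NC, with no overlap. miR-17-3p was also higher, at 1.31% ± 0.0578 in si-METTL3 and 1.18% ± 0.0641 in si-NC, though the nearest libraries almost met, at 1.2438% in si-METTL3 1 and 1.2431% in si-NC 3. The shares of miR-19a-3p (2.79% ± 0.07 in si-METTL3, 2.96% ± 0.03 in si-NC) and miR-92a-1-5p (2.35% ± 0.03 in si-METTL3, 2.51% ± 0.06 in si-NC) were lower in every si-METTL3 library. The other 6 shares overlapped between the groups. No test of the shares was made, and one share moves the others.

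Ratios between members do not depend on the scaling. Of 10 such ratios chosen and computed, 6 overlapped between the groups and 4 did not. Several of them share a member, and 37.2% of the 5p to 3p ratios of the hairpins tested did not overlap either. The ratio of miR-17-5p to miR-19a-3p was 2.12, 2.60 and 2.50 in si-METTL3, against 1.92, 2.00 and 2.00 in si-NC, and that of miR-18a-5p to miR-19a-3p was 0.35, 0.42 and 0.44 in si-METTL3, against 0.34, 0.34 and 0.32 in si-NC. In both, si-METTL3 1 was the nearest to the si-NC libraries. That of miR-17-5p to miR-92a-3p was also higher in si-METTL3, though the nearest libraries almost met, at 0.1013 in si-METTL3 1 and 0.1006 in si-NC 2, and the fourth was that between the arms of miR-92a-1. miR-19b-3p and miR-92a-3p kept a ratio of 0.172 ± 0.00937 in si-METTL3 and 0.170 ± 0.00051 in si-NC, with overlap.

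**Figure D4:**
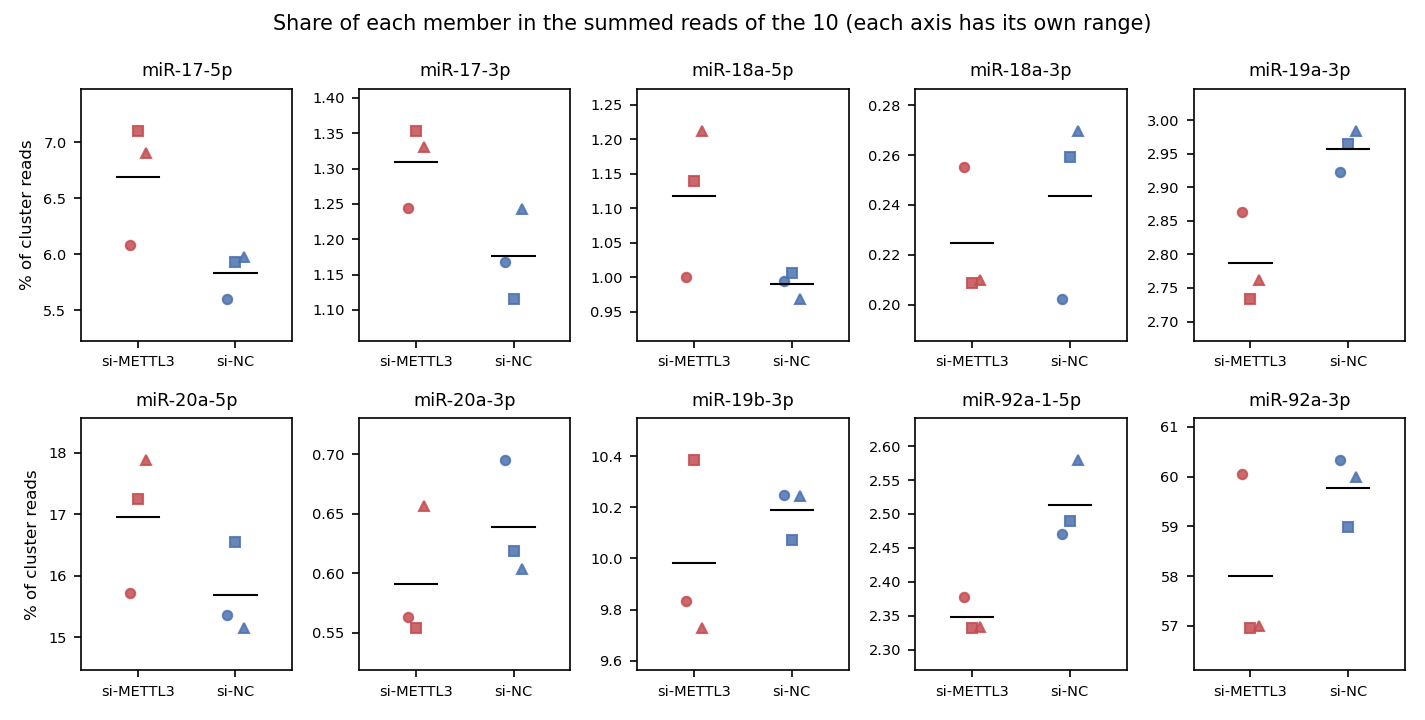
Each panel gives the share of 1 member in the summed reads of the 10, in percent, by library (circle, square and triangle, replicates 1, 2 and 3; red, si-METTL3; blue, si-NC; lines, means of 3). Each axis has its own range and does not start at 0. miR-17-5p and miR-17-3p lie higher in si-METTL3, and miR-19a-3p and miR-92a-1-5p lower, with no overlap.

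The arms of a hairpin held unequal numbers of reads. Mir17, Mir18 and Mir20a favoured the 5p arm, and Mir19a, Mir19b-1 and Mir92-1 the 3p arm. Reads of miR-19a-5p numbered 8, 0 and 5 in si-METTL3, against 4, 2 and 11 in si-NC, and those of miR-19b-1-5p 9, 5 and 4 in si-METTL3, against 11, 7 and 8 in si-NC, so neither passed the filter on low counts. The 5p to 3p ratio was 4.89, 5.24 and 5.18 for miR-17 in si-METTL3, against 4.79, 5.32 and 4.801 in si-NC. miR-20a was the most skewed towards 5p, at 27.9, 31.1 and 27.2 in si-METTL3, against 22.1, 26.7 and 25.1 in si-NC, with no overlap. For miR-92a-1 the 3p reads include any from the X-linked copy Mir92-2, so the ratio may not be that of one hairpin. It was 0.0396, 0.0410 and 0.0410 in si-METTL3, against 0.0410, 0.0422 and 0.0430 in si-NC. These also did not overlap, though the nearest, 0.0409556 in si-METTL3 2 and 0.0409592 in si-NC 1, were almost equal.

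None of the 4 member hairpins with both arms measured passed in the test of arm ratios (limma on log2 ratios over 148 hairpins, Benjamini-Hochberg adjustment), where 10.1% of hairpins were called (6.08% higher, 4.05% lower), and none had an unadjusted p under 0.05. The log2 difference was 0.04 ± 0.09 for miR-17 (SE, adjusted p 0.833), 0.28 ± 0.20 for miR-18a (adjusted p 0.361), 0.22 ± 0.11 for miR-20a (adjusted p 0.247) and -0.05 ± 0.08 for miR-92a-1 (adjusted p 0.704), all by limma. The median hairpin had a ratio of 4.39 in size on the log2 scale. Of the 148 hairpins, 101 were more skewed than miR-17 and 103 more than miR-18a, while 64 were more skewed than miR-20a and 68 more than miR-92a-1. Member ratios without overlap numbered 2 of 4, against 37.2% of all hairpins.

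End variants carried a large part of the reads of miR-92a-3p and a small part of those of the other guides. miR-92-y had 10437, 7203 and 7331 counts in si-METTL3, against 7163, 6974 and 6873 in si-NC. At 1677 ± 30.1 CPM in si-METTL3 and 1703 ± 45.7 CPM in si-NC its mean was above that of miR-20a-5p in both groups, though in si-METTL3 3 it had 1659.9 CPM and miR-20a-5p 1697 CPM. It did not pass (log2 fold -0.02 ± 0.04, adjusted p 0.750, edgeR). Of the 16 variant names 10 could be tested, and 1 fell and 0 rose, where 11.6% of all names tested were called lower and 17.7% higher. Variants of the minor arm miR-18a-3p made up 12.6%, 20.8% and 12.9% of its reads in si-METTL3, against 9.57%, 7.02% and 11.3% in si-NC. These shares did not overlap, which was also true of 47.3% of the arms in the test of shares below. They came from 8 to 22 counts a library, too few for that test. The name behind them, miR-18-y, could be tested by its level, and did not pass (log2 fold 0.59 ± 0.37, adjusted p 0.262, edgeR). In CPM its groups overlapped.

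The share of variants within an arm was tested over 74 arms (limma on the log2 ratio of variant to mouse form, a comparison added after seeing the data), and 21.6% of arms were called, 12.2% higher and 9.46% lower. Of the 5 member arms measured deeply enough, miR-20a-5p was the 1 that passed. Its variants made up 3.04%, 3.23% and 3.15% of its reads in si-METTL3, against 4.17%, 4.21% and 3.96% in si-NC. The si-METTL3 libraries were all lower, and the Wilson 95% intervals for counting error alone ran from 2.71% to 3.67% in si-METTL3 and from 3.51% to 4.70% in si-NC. The log2 difference was -0.40 ± 0.06 (SE, adjusted p 0.00995, limma). In the 3-library fit it was -0.44 and did not pass (adjusted p 0.284), while it passed in the other 10 alternatives (0.001 to 0.0481). The name that fell was miR-106-x, with 28.5 ± 2.58 CPM in si-METTL3 and 36.7 ± 2.50 CPM in si-NC (log2 fold -0.37 ± 0.12, adjusted p 0.0253, edgeR). miR-20-x, of identical sequence, had a log2 fold of -0.38 ± 0.17 (adjusted p 0.0960, edgeR).

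For miR-92a-3p the variants made up between 23.8% and 24.4% of its reads in the si-METTL3 libraries, against 22.5%, 23.0% and 22.4% in si-NC. These shares did not overlap, which was also true of 47.3% of arms, and the log2 difference of 0.12 ± 0.06 did not pass (adjusted p 0.183, limma). miR-17-5p (-0.28 ± 0.13, adjusted p 0.162), miR-17-3p (0.17 ± 0.18, adjusted p 0.510) and miR-19b-3p (-0.06 ± 0.09, adjusted p 0.634) did not pass either. Without si-NC 1 the sign turned for miR-17-3p (-0.04) and miR-19b-3p (0.02).

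**Figure D5:**
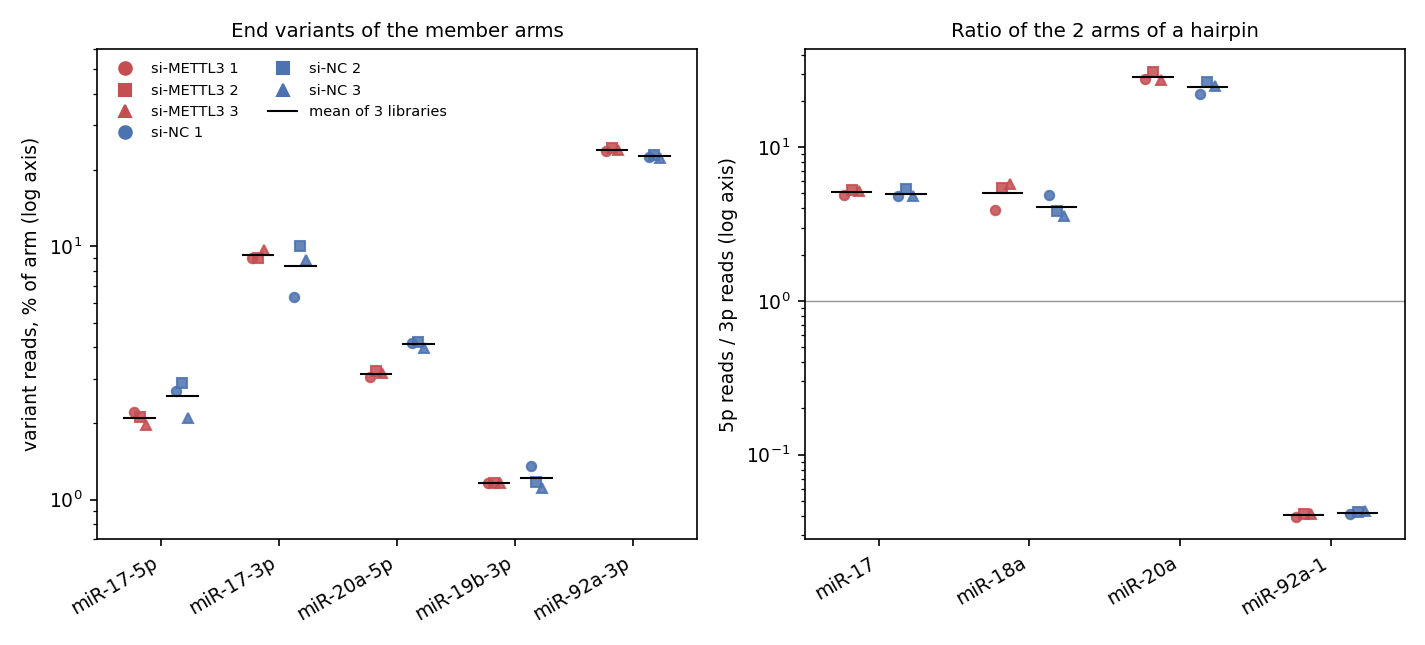
Left, end variants as a percentage of the reads of 5 member arms; right, reads of the 5p arm over reads of the 3p arm for 4 member hairpins, both by library on log axes (red, si-METTL3; blue, si-NC; lines, means of 3). Variants of miR-20a-5p were lower in all si-METTL3 libraries, and those of miR-92a-3p averaged 24.1% in si-METTL3 and 22.6% in si-NC.

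Among mouse names in the table, the miR-18 and miR-19 seeds were carried by members alone, and the seeds of miR-17 and miR-92 also occurred outside the cluster. The miR-17 seed was carried by 5 mouse names, and miR-17-5p and miR-20a-5p gave 61.8% ± 0.38 of its reads in si-METTL3 and 62.3% ± 0.29 in si-NC. The miR-92 seed was also carried by 5 names, and miR-92a-3p gave 54.2% ± 1.01 of its reads in si-METTL3 and 55.6% ± 0.91 in si-NC. Reads summed over that seed were 10034 ± 136 CPM in si-METTL3 and 10773 ± 168 CPM in si-NC, with no overlap, while sums over the miR-17 seed overlapped. These sums and shares cover mouse names alone. End variants are not in them, among them miR-92-y, with a mean of 1677 CPM in si-METTL3 and 1703 CPM in si-NC.

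The miR-106b-25 cluster, a paralogue in an intron of the replication gene Mcm7, had all 6 of its names tested. Of these, 1 rose and 0 fell, where 17.7% of all names tested were called higher and 11.6% lower. The cluster had a median log2 fold of 0.05. Its summed reads were 6306, 6419.7 and 6495 CPM in si-METTL3, against 6475, 6541 and 6661 CPM in si-NC, with overlap. Scaled by library totals alone the sums did not overlap, at 6229 to 6280 CPM in si-METTL3 and 6538 to 6890.4 CPM in si-NC. The name that rose was miR-93-3p, a minor arm, with 51.0, 39.9 and 41.2 CPM in si-METTL3, against 24.7, 34.8 and 30.9 CPM in si-NC. Its log2 fold was 0.55 ± 0.13 (SE, adjusted p 0.00244, edgeR), and limma on TPM did not pass it (adjusted p 0.0700 to 0.110, where the 20 alternatives began at 9.9e-05). miR-25-3p, which has the seed of miR-92a-3p, had 4263, 4315 and 4309 CPM in si-METTL3, against 4473, 4459 and 4588 CPM in si-NC. Its si-METTL3 libraries were all lower and its log2 fold of -0.07 ± 0.04 did not pass (adjusted p 0.201, edgeR). The other names with this seed did not pass, with log2 folds of 0.21 ± 0.09 for miR-92b-3p (adjusted p 0.0638), 0.12 ± 0.07 for miR-32-5p (adjusted p 0.213) and -0.08 ± 0.13 for miR-363-3p (adjusted p 0.690).

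Across the 6 libraries the mean profile of the 9 members with a mean of at least 50 CPM was low in si-METTL3 1 and high in si-NC 1. Of 155 other mouse names at that level, the nearest were mmu-miR-16-5p, miR-3068-5p, miR-152-3p, miR-29a-3p and miR-186-5p, at root mean square distances of 0.0251 to 0.0305 on the log2 scale. The median candidate was at 0.129, and the members themselves were 0.0483 to 0.113 from their mean. None of these 5 names passed in edgeR's test. mmu-miR-16-5p had 3766, 3899 and 4016 CPM in si-METTL3, against 4212, 4004 and 4190 CPM in si-NC, with a log2 fold of -0.09 ± 0.04 (adjusted p 0.124, edgeR).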

How the data were processed

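The submitters' processing notes name RSEM, StringTie, Bowtie2, fastp and the build mm10, with no role or version. Per the file headers, the authors deposited a count of reads and a TPM per library for each miRNA name, group means, a log2 fold change, a p-value and an FDR. Each deposited TPM was its count over 1 library total (largest gap 5e-05), with 0 written as 0.01. These totals were taken as library sizes. The authors' test and read assignment are not stated in these sources, and 2 emptied lines were not analysed.

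Counts were tested with edgeR 4.0.16 (R 4.3.3), quasi-likelihood, robust, TMM scaling, filterByExpr, no block, over 622 names, with 4 residual degrees of freedom and a common coefficient of biological variation of 0.0583. Log2 ratios of arms (pseudocount 0.5, a mean of at least 10 counts in each) and of end variants (at least 50 counts) were tested with limma 3.58.1. DESeq2 1.42.0, limma on TPM, other scalings, filters and left-out libraries served as alternatives. CPM is scaled by TMM-adjusted library totals, except for marker lists and the floor of 3 counts, which use library totals. Intervals cover counting error only.

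The members and lists were chosen with earlier results of these data known. All 10 members are described, then the related clusters and seeds, then the 5 mouse names nearest in profile. Between libraries of a group the chi-square of counts over its degrees of freedom was 8.35 to 13.2, so no library was counted as a copy of another.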

Additional observations from a re-analysis of the deposited data

How the results depend on the processing

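Of the 10 members, 4 changed here. The count was 4 with DESeq2's size factors or Wald test, 2 with end variants summed per mouse arm, 2 with limma on log2(TPM + 1), on log2(TPM + 0.5) and on log2(TPM + 5), and 0 in the 3-library fit described above. Leaving out 1 library gave 1 to 4, among them miR-17-5p as 1 name higher without si-METTL3 1. It was 3 to 5 in the other settings, with 3 from edgeR's exact test and with no filter and 5 with library totals alone. Of all names, 182 changed here, 114 with limma on log2(TPM + 1), 111 with log2(TPM + 0.5), 118 in the 3-library fit and 153 to 171 without 1 library. Library totals alone moved the median log2 fold to -0.06 and the split to 83 higher and 102 lower, against 110 higher and 72 lower.

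Signs turned for members that did not pass. The log2 fold of miR-20a-5p ranged from -0.0362 (without si-METTL3 3) to 0.0660 (without si-METTL3 1) with 1 library left out, and was -0.0260 without si-NC 3, -0.0521 with library totals alone, -0.0521, -0.0521 and -0.0519 with limma on TPM with 1, 0.5 and 5 added, -0.000707 with at least 10 CPM in 3 libraries and -0.0961 in the 3-library fit. That of miR-17-3p was -0.009147 with library totals alone, -0.006722, -0.006746 and -0.006535 in these limma fits, and -0.007044 in the 3-library fit, which also gave -0.0538 for miR-17-5p and -0.0646 for miR-18a-5p. The same fit gave -0.0481 for the arm ratio of miR-17. The variant ratio of miR-17-3p ran from -0.0354 (without si-NC 1) to 0.33 (without si-NC 2) and was -0.0822 in the 3-library fit. That of miR-19b-3p ran from -0.12 to 0.0199 (without si-NC 1) and was 0.0170 in the 3-library fit. The cause was not tested.

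Hairpins with a changed arm ratio numbered 15 here, 2 to 13 without 1 library, 32 and 6 with a mean of at least 50 and 3 counts, and 0 in the 3-library fit. Arms with a changed variant ratio numbered 16 here, 7 to 19 without 1 library, 8 with at least 10 counts and 2 in the 3-library fit.

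No label says whether replicate numbers pair the libraries. After centring within groups, same-numbered libraries had correlations of 0.064, 0.087 and -0.12 over 329 names. Differently numbered ones ran from -0.20 to 0.11, and so few libraries cannot settle whether a pairing existed. With the replicate number as a block, 176 names and 4 members changed, against 0 hairpins in the arm ratio and 10 arms in the variant ratio, and the variant ratio of miR-20a-5p stayed at -0.40 (adjusted p 0.0379, limma).

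The SE of the members' log2 folds ran from 0.04 for miR-92a-3p to 0.15 for miR-18a-3p, and the smallest fall that passed was 0.13. Negative log2 folds of larger size that did not pass were those of miR-20a-3p (-0.21) and miR-18a-3p (-0.20). Each SE holds counting error and the spread between libraries, and the part of depth in it was not tested.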
